A study of Tigriopus californicus with 32 samples.

Results

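The response to daily warming was measured in the San Diego (SD) population of the intertidal copepod Tigriopus californicus, by setting 28V, copepods 2 h into the warm phase of a cycling regime, against 20V, copepods of the same regime at the end of its cool phase. The members are 4 of the 32 libraries of the series, those labelled cycling 28 and cycling 20 for SD, and all 17987 genes of the table that holds them. Copepods of both groups were born and raised in a daily cycle between 20 and 28 °C, so that the warming at 28V was one of many, and 28V was also sampled later in the day than 20V, so that temperature and time of day cannot be told apart. Each library came from a pool of 100 whole adults with equal numbers of males and females, and each group had 2 libraries, 1 in each of 2 blocks (a and b). The blocks are those of the column name suffixes and were taken as sequencing lanes. According to the methods, the 2 SD replicates ran in separate lanes of different HiSeq models, but the labels do not tie the suffixes to them. Each pool was held in a dish of its own from the day before sampling, but the methods do not say whether the dishes of a group were filled from separate rearing dishes, so p-values measure the spread between these pools, which may be technical. Beside them stood 28ST, SD copepods raised at a constant 20 °C and exposed once to 28 °C, and 20NV, SD copepods kept at a constant 20 °C, also with 2 libraries each, and the 28V and 20V libraries of Bird Rock (BR), Santa Cruz (SC) and Bodega Bay (BB). In whole-animal pools, fewer cells of a type and less RNA per cell cannot be told apart.

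Heat shock proteins are chaperones that bind unfolded proteins and help them to refold. HSP70 and HSP90 use ATP and work with co-chaperones such as HSP40 and the HSP70-HSP90 organizing protein, small heat shock proteins hold unfolding proteins without ATP, and GRP78 and the protein disulfide isomerases do related work in the endoplasmic reticulum. In animals most of the inducible members are switched on by heat shock factor within minutes to hours of warming. Cuticle proteins, the other large group here, bind chitin in the exoskeleton of arthropods.

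The libraries held 5292550 (block a) and 14252927 (block b) assigned reads in 28V, against 6635552 (block a) and 10484545 (block b) in 20V, and between 1 and 14 genes had no read in a library. Among 11836 genes whose mean value reached 10, the 28V pair was the least alike of the 6 pairs of libraries (Pearson r = 0.93 across genes) and the 20V pair the most alike (r = 0.97). Across genes, the difference between 28V and 20V in block a had a correlation of -0.075 with that in block b, over the same 11836 genes, which share libraries and depth. Values are in cpm, the reads of a gene relative to the scaled library size, and differences are 28V minus 20V on the log2(value + 1) scale, with the standard error of limma's fit with the block. They are not divided by gene length and compare libraries, not genes. No gene passed limma at an adjusted p under 0.05 (0% of 17987). The lowest adjusted p was 0.101, and 14 genes, 11 of them higher at 28V, shared values of 0.101 and 0.102. At an unadjusted p under 0.05, 761 genes (4.23%) were called, 440 higher (2.45%) and 321 lower (1.78%). The quasi-likelihood test of edgeR on the recovered reads also called 0, with 716 at an unadjusted p under 0.05. The likelihood ratio test of edgeR, the study's own kind of test, called 126 genes (0.701%), 93 higher (0.517%) and 33 lower (0.183%), and DESeq2 called 50. All 126 had the same sign in both blocks. Without 28V block a, limma without the block called 43 genes, and without 28V block b it called 109, with the lone 28V library assumed to vary like the 20V pair. Below, called higher or lower refers to the likelihood ratio test, an alternative to the limma fit. On simulated libraries of this design the calls of both tests held more unchanged genes than the adjusted p states.

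Chaperone genes were mostly higher at 28V. Of 67 genes measured in the chaperone lists, which also hold mitochondrial proteases and the transcription factor X-box binding protein 1, 61 were higher in both blocks and 53 had both 28V libraries above both 20V libraries, against 23.1% and 12.6% of all genes. By limma's unadjusted p, 41 were higher and 1 lower, beside 2.45% and 1.78% of all genes. The likelihood ratio test called 19 higher and 1 lower, beside 0.517% and 0.183% of all genes. It called 3.03% of the described genes, higher or lower. Beside a median difference of -0.006 for all genes, that of the 67 chaperone genes was 0.49. Without the block 36 of them had an unadjusted p under 0.05, and 25 without 20V block a, which was the lowest of the 4 counts with a library left out. The lists rest on gene descriptions given mainly for genes the study had called or found high after heat, and 12.2% of the 2966 described genes had an unadjusted p under 0.05, so that the lists are not independent of the response.

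The HSP70 family, which folds new and damaged proteins, had all 9 members higher at 28V in every library, with a median difference of 0.96. Of these, 8 had an unadjusted p under 0.05 and 5 were called higher, beside 2.45% and 0.517% of all genes in that direction. TCALIF_04517, the HSP70 gene with the largest difference, had values of 1744 and 1640.1 in 28V, against 291 and 364 in 20V, a difference of 2.37 ± 0.20 (adjusted p = 0.102 with limma and 5.89e-10 with the likelihood ratio test). Both 28V libraries stood above both 20V libraries, and the values of each pair lay close together. A second HSP70 gene, TCALIF_06728, reached 149.9 and 129 in 28V, against 31.4 and 38.3 in 20V, a difference of 1.97 ± 0.16 (adjusted p = 0.101 with limma). In TCALIF_09482, also HSP70, the values were 32.6 and 25.5 in 28V, against 6.91 and 7.48 in 20V, a difference of 1.86 ± 0.19. The HSP70 genes TCALIF_11487 and comp50334_c0_seq1_42602 were called higher too, with differences of 1.06 ± 0.13 and 0.96 ± 0.15. Other members had smaller differences. TCALIF_03946 had 1296 and 1210.4 in 28V, against 682 and 805 in 20V, a difference of 0.76 ± 0.21, and comp41659_c0_seq1_26712 had a difference of 0.66 ± 0.12, and neither was called. The smallest differences of the family were those of comp43091_c0_seq2_28458, at 0.54 ± 0.17, and TCALIF_10670, at 0.36 ± 0.14, larger relatives of HSP70 that act as its nucleotide exchange factors. A further gene that the study names among its HSP70 genes, comp38417_c0_seq1_22939 (described only as loc560210 protein and so in none of the lists), had 50.6 and 23.0 in 28V, against 11.2 and 15.0 in 20V, a difference of 1.34 ± 0.36 (likelihood ratio adjusted p = 0.0363).

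HSP90 keeps signalling proteins such as steroid receptors and kinases in an active shape. All 3 of its genes were higher at 28V in every library, beside 12.6% of all genes. TCALIF_01534, whose description names a chain of an HSP90 structure, had 1797 and 1693 in 28V, against 640.1 and 702 in 20V, a difference of 1.38 ± 0.21 (adjusted p = 0.339 with limma and 0.00371 with the likelihood ratio test). The gene comp46685_c0_seq1_33583 had 85.6 and 197 in 28V, against 32.9 and 54.1 in 20V, a difference of 1.60 ± 0.16. Its 28V libraries were less alike than its 20V libraries, yet both stood above both 20V libraries. In comp41334_c0_seq1_26338 the difference was 0.66 ± 0.14, and it was not called.

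Small heat shock proteins are given in 3 kinds by their difference at 28V. Of 10 genes, 9 were higher in both blocks and 1 was lower, beside 23.1% and 24.5% of all genes. The median difference was 0.77. The likelihood ratio test called 0.517% of all genes higher and 0.183% lower. The 4 heat shock protein beta-1 genes TCALIF_13715, TCALIF_10081, TCALIF_13714 and TCALIF_07011 were called higher, with differences of 1.26 ± 0.24, 1.13 ± 0.21, 1.07 ± 0.17 and 0.99 ± 0.12. In TCALIF_13715 the values were 57.8 and 38.1 in 28V, against 17.04 and 21.3 in 20V. TCALIF_04918, an HSP16-type gene, had a difference of 0.94 ± 0.22 and was not called. A second set had smaller differences. TCALIF_06394 had 695 and 863 in 28V, against 448 and 579.7 in 20V, a difference of 0.60 ± 0.17, and TCALIF_13523 had 270.0 and 395 in 28V, against 253 and 338 in 20V, a difference of 0.16 ± 0.14 whose sign turned without 20V block a (-0.047) or without 28V block b (-0.11). TCALIF_11866 and TCALIF_00902, an alpha-crystallin B chain-like gene, had differences of 0.49 ± 0.15 and 0.20 ± 0.11. The third kind was 1 gene, comp47454_c0_seq1_35179, also described as heat shock protein beta-1. It had 26.1 and 23.3 in 28V, against 55.1 and 49.5 in 20V, a difference of -1.05 ± 0.13, and was called lower (adjusted p = 0.00113 with the likelihood ratio test and 0.185 with limma). Both of its 28V libraries lay under both 20V libraries.

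**Figure D1:**
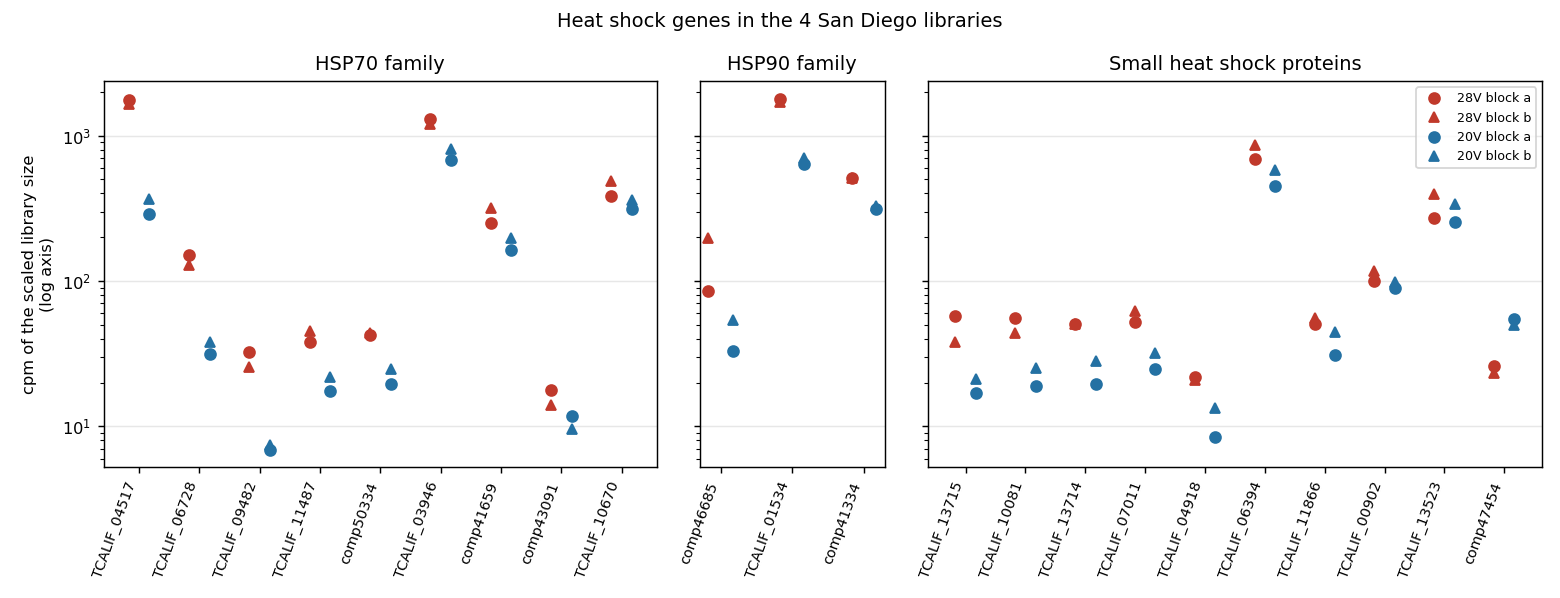
Values of the HSP70, HSP90 and small heat shock protein genes in the 4 libraries, in cpm of the scaled library size on a log axis; 28V is red and left of 20V, which is blue, and circles and triangles are blocks a and b. Every HSP70 and HSP90 gene has both 28V libraries above both 20V libraries, and comp47454 is the 1 small heat shock gene with 28V below 20V.

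In the endoplasmic reticulum, all 11 genes of a list of chaperones and a regulator were higher at 28V in every library, with a median difference of 0.60. Of these, 9 had an unadjusted p under 0.05 and 4 were called higher, beside 2.45% and 0.517% of all genes in that direction. GRP78 (BiP), the HSP70 of this compartment, is held by 2 identifiers. TCALIF_00753 had 655 and 545 in 28V, against 223 and 279 in 20V, a difference of 1.26 ± 0.19, and comp32704_c0_seq2_17919 had 20.8 and 17.5 in 28V, against 5.29 and 7.38 in 20V, a difference of 1.46 ± 0.23. One identifier is a genomic and the other a de novo transcript, and reads of 1 gene could be split between them. X-box binding protein 1 (TCALIF_09115), the transcription factor of the unfolded protein response, had 112 and 79.0 in 28V, against 32.0 and 53.6 in 20V, a difference of 1.16 ± 0.29 (likelihood ratio adjusted p = 0.0147). Protein disulfide isomerase A6 (TCALIF_11129), which forms disulfide bonds, was called as well, with a difference of 0.90 ± 0.19. Calreticulin (TCALIF_09500), the calcium-binding lectin chaperone, had 1601 and 1621 in 28V, against 1186 and 1319 in 20V, a difference of 0.37 ± 0.24, and was not called.

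Co-chaperones were more mixed, with 11 of 15 higher in both blocks, 3 called higher and a median difference of 0.34. Of all genes, 23.1% were higher in both blocks and 0.517% were called higher. Contig10_2020 and TCALIF_08135, described as the HSP70-HSP90 organizing protein that joins both chaperones, had differences of 0.99 ± 0.15 and 0.78 ± 0.12. An HSP40 gene, comp49814_c3_seq5_40727, had 44.7 and 57.2 in 28V, against 25.0 and 29.3 in 20V, a difference of 0.88 ± 0.13. The BAG domain protein TCALIF_09395, of a family that releases clients from HSP70, had a difference of 0.77 ± 0.16 and was not called. The subunits of the CCT ring, which folds actin and tubulin, were higher in both blocks in 13 of 13 genes, yet by little, with a median difference of 0.35 and 0 called. Of the mitochondrial list, a gene described as the ClpX-like subunit of the ATP-dependent Clp protease, TCALIF_09890, had 133 and 88.5 in 28V, against 17.04 and 32.2 in 20V, a difference of 2.16 ± 0.35 (likelihood ratio adjusted p = 7.02e-08). A second ClpX-like entry, Contig1467_3339, had 4.45 and 3.61 in 28V, against 1.32 and 2.04 in 20V. Its difference was 0.91 ± 0.30, and it was not called. The mitochondrial chaperonin HSP60 (TCALIF_02260) had 339 and 442 in 28V, against 323 and 406 in 20V, a difference of 0.10 ± 0.14 that changed sign without 20V block a (-0.068) or 28V block b (-0.094).

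The largest differences at 28V were not all chaperones. Ranked by the lesser of the block differences among 11834 genes, the 12 highest ended at 1.73 and the next gene, TCALIF_09482, had 1.64. The first was TCALIF_06172, a hypothetical protein, with 161 and 68.5 in 28V, against 17.6 and 1.36 in 20V, a difference of 3.999 ± 0.42 (adjusted p = 0.161 with limma). Its 20V libraries were less alike than its 28V libraries, on the ratio scale. TCALIF_03376, without a description, had 114 and 62.0 in 28V, against 8.08 and 9.42 in 20V, a difference of 3.13 ± 0.27. TCALIF_03375, of the next identifier and also undescribed, had 32.8 and 23.7 in 28V, against 3.82 and 2.72 in 20V, a difference of 2.77 ± 0.19. The gene comp51313_c0_seq1_44507, also without a description, had 755 and 691 in 28V, against 93.5 and 108 in 20V, a difference of 2.83 ± 0.15 and the lowest unadjusted p of the 17987 genes (adjusted p = 0.101 with limma). TCALIF_02439, a CD63 antigen, which is a tetraspanin of late endosomes, had 95.4 and 58.6 in 28V, against 16.3 and 12.4 in 20V, a difference of 2.31 ± 0.15. Contig20_19 had 538 and 361 in 28V, against 113 and 104.8 in 20V, a difference of 2.01 ± 0.16. Among other genes that the study names, the short-chain dehydrogenase TCALIF_13893 had 68.9 and 70.02 in 28V, against 25.1 and 33.7 in 20V, a difference of 1.23 ± 0.15, and the undescribed TCALIF_00461 had 60.8 and 79.6 in 28V, against 22.9 and 15.0 in 20V, a difference of 1.85 ± 0.25. TCALIF_01814, described as an adhesion lipoprotein, had 2059 and 1098 in 28V, against 324 and 822 in 20V, where the block b libraries lay closer to each other than those of block a, and it was not called (likelihood ratio adjusted p = 0.181). Of 30 such genes 29 were higher at 28V in both blocks, but the study chose them on libraries that include these.

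Cuticle protein genes held 15 calls, all higher at 28V, but their 2 blocks differed. These were 15 of 79 measured, beside 0.517% of all genes called higher. At an unadjusted p under 0.05, 20 of the 79 were higher and 5 lower, beside 2.45% and 1.78% of all genes. The median difference of the list was 0.75 in block a and -0.26 in block b. Opposite signs in the blocks were held by 42 of the 79, a share close to that of all genes (9435 of 17987). TCALIF_00286, cuticle protein 7, had 51.3 and 52.6 in 28V, against 11.02 and 1.55 in 20V, a difference of 3.26 ± 0.53, and TCALIF_10390, of the same description, had 142 and 78.9 in 28V, against 31.4 and 20.9 in 20V, a difference of 2.00 ± 0.13 (adjusted p = 0.101 with limma). TCALIF_07088 had 36.3 and 26.7 in 28V, against 11.02 and 6.02 in 20V, a difference of 1.81 ± 0.18. In TCALIF_03706 and TCALIF_12219, picked after their values were seen, the block b differences were 3.23 and 3.45 and the block a differences 0.96 and 0.88. Other members were lower at 28V without being called, such as Contig1746_1745 with 5.56 and 4.597 in 28V, against 17.8 and 10.1 in 20V, and TCALIF_07889 with a difference of -0.69 ± 0.12. Contig59_58, which the study names, had 269 and 70.2 in 28V, against 195 and 203 in 20V, so that 28V block b alone lay under both 20V libraries, and its difference of -0.53 ± 0.46 became 0.43 without that library. Without 28V block a 44 cuticle genes had an unadjusted p under 0.05, 23 higher and 21 lower, beside 25 with all libraries.

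**Figure D2:**
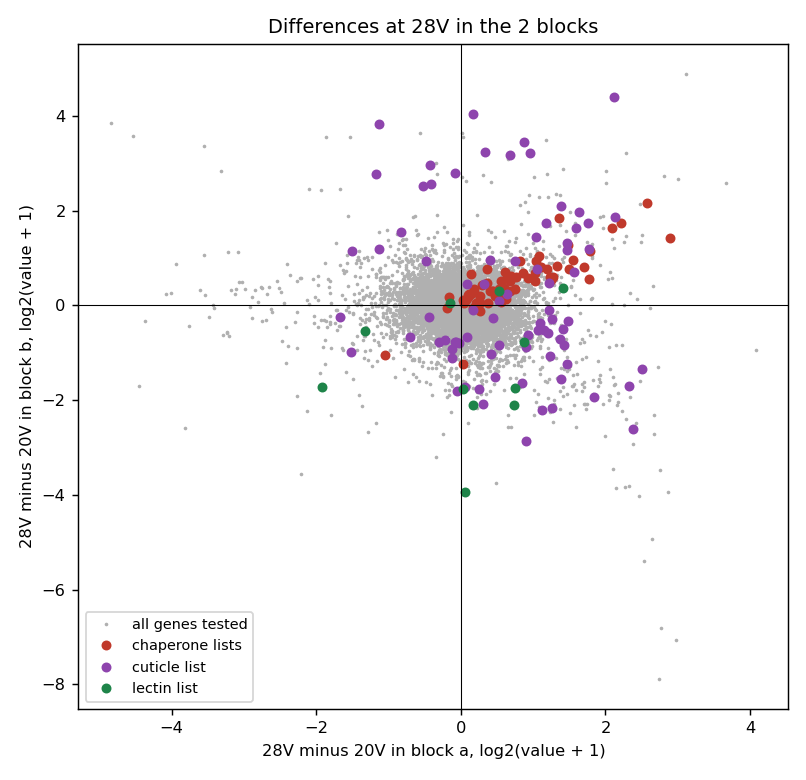
Difference between 28V and 20V on the log2(value + 1) scale in block a (x) and block b (y) for all 17987 genes (grey), the chaperone lists (red), the cuticle list (purple) and the lectin list (green). Chaperones lie in the upper right, with 61 of 67 above 0 on both axes, while cuticle genes lie in all 4 quadrants, with 42 of 79 at opposite signs, close to the share of all genes (9435 of 17987).

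The 28V library of block b stood apart in several tissue lists. The vitellogenins, yolk proteins made by females, summed to 23108 in 28V block a and 7825 in 28V block b, against 18905 and 21165 in 20V, and the most abundant of them, TCALIF_13264, had 10478 and 3246 in 28V, against 8522 and 9726 in 20V. The 48 muscle genes summed to 11906 in 28V block a and 20575 in 28V block b, against 14690 and 13090 in 20V, and their median difference was -0.20 in block a and 0.38 in block b. The 11 C-type lectin and related genes, a family of sugar-binding proteins, had a median difference of 0.17 in block a and -1.72 in block b, and summed to 238 in 28V block a and 66.2 in 28V block b, against 184 and 204 in 20V. One of them, comp35607_c0_seq1_20423, had 0 and 1 reads in 28V, against 19 and 26 in 20V. No defining gene of muscle or yolk was absent from a library. The part of these shifts in the cuticle and lectin differences was not tested. The 67 chaperone genes summed to 14528 and 14624 in 28V, against 8160.5 and 9519 in 20V, with both blocks alike. Of the ovary list, the chorion peroxidases TCALIF_13048 and comp37950_c0_seq1_22442, whose family hardens the egg shell in insects, were called higher, with 72.3 and 20.30 in 28V, against 19.8 and 9.72 in 20V in the first. Without 28V block a their differences were 0.51 and 0.38, and without 28V block b 2.29 and 2.39, in TCALIF_13048 and comp37950_c0_seq1_22442 in that order.

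**Figure D3:**
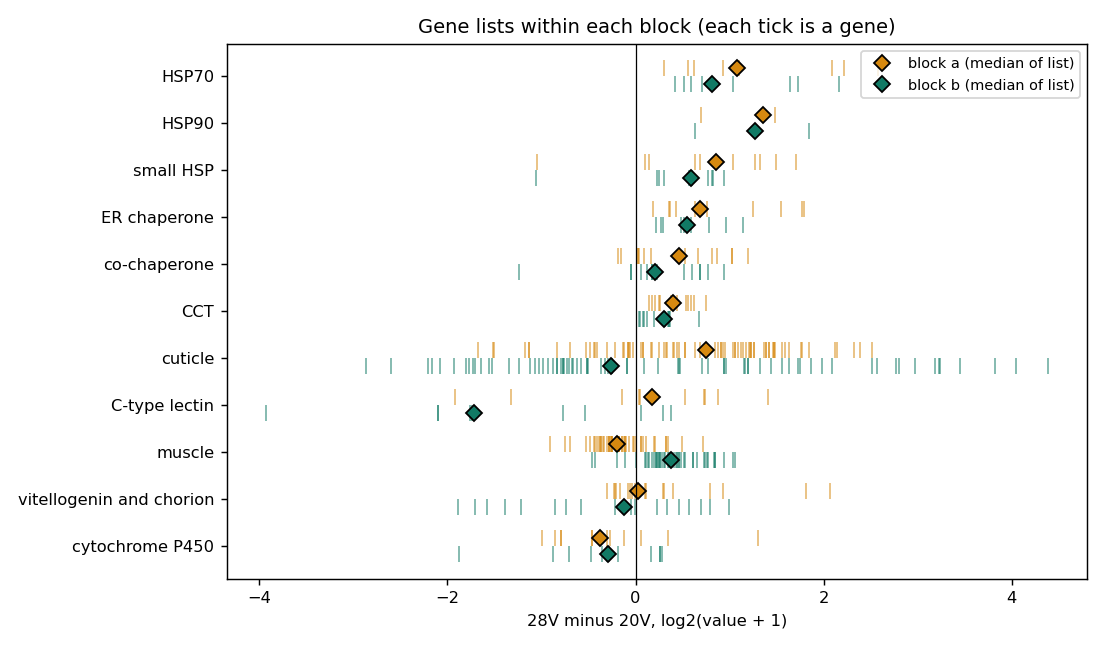
Difference between 28V and 20V on the log2(value + 1) scale for each gene (tick) of 11 lists in block a (orange) and block b (green), with diamonds at the list medians. The medians of the chaperone lists lie above 0 in both blocks, and those of the cuticle, C-type lectin and muscle lists lie on opposite sides of 0.

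A group noticed after the values were seen was that of the spätzle genes, ligands that activate Toll receptors in insects. Of 8 genes so described, 7 were higher at 28V in both blocks, 6 were called higher and the median difference was 1.59, beside 23.1% of all genes higher in both blocks and 0.517% called higher. Since the group was picked for these values, this is a description with no test. TCALIF_09397 had 185 and 241 in 28V, against 80.8 and 34.2 in 20V, a difference of 1.98 ± 0.37. TCALIF_09407 had 31.7 and 12.4 in 28V, against 7.35 and 3.30 in 20V, a difference of 1.80 ± 0.20, and comp44992_c0_seq1_30955 had 71.9 and 30.5 in 28V, against 15.9 and 12.6 in 20V. The 3 genes TCALIF_09662, TCALIF_09663 and TCALIF_09664, of successive identifiers, had differences of 1.39 ± 0.34, 1.51 ± 0.21 and 1.53 ± 0.29, and the first was not called. Without 28V block a the differences of TCALIF_09407, comp44992_c0_seq1_30955 and TCALIF_09663 were 1.16, 1.05 and 0.89, and without 20V block b, in which TCALIF_09664 had 1 read, that of TCALIF_09664 was 0.86. The eighth, TCALIF_11791, described as a spätzle 6 precursor, had 22.4 and 19.4 in 28V, against 31.0 and 18.8 in 20V. Of 21 genes described as spt transcription factor family members, 3 were called higher (beside 0.517% of all genes), 13 had opposite signs in the blocks and the median difference was 0.071, with a lowest of -2.04. TCALIF_11653 had 141 and 108 in 28V, against 39.2 and 43.1 in 20V, a difference of 1.56 ± 0.16. TCALIF_03908 had 56.7 and 55.1 in 28V, against 30.1 and 11.3 in 20V, and TCALIF_12524 had 7.60 and 16.6 in 28V, against 3.53 and 3.497 in 20V.

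The other lists gave few calls. Of 25 chitin genes, 6 were higher and 4 lower at an unadjusted p under 0.05, beside 2.45% and 1.78% of all genes. The peritrophin gene comp63947_c0_seq1_44811, of a family that lines the gut of insects, was called higher, with 38.5 and 42.9 in 28V, against 16.5 and 2.91 in 20V. The chitinase comp33970_c0_seq1_19090, which breaks chitin down, was called lower, with 34.7 and 20.4 in 28V, against 52.5 and 47.0 in 20V. All 4 cytochrome P450 genes with an unadjusted p under 0.05 were lower at 28V, such as TCALIF_13352 with 53.4 and 77.9 in 28V, against 108 and 96.3 in 20V, and none of the 12 was called. A superoxide dismutase (TCALIF_03987), which removes superoxide, had 174 and 149.9 in 28V, against 89.9 and 110.4 in 20V, and ferritin heavy chain 1 (TCALIF_08982), which stores iron, had 164 and 143 in 28V, against 208 and 340.3 in 20V, and neither was called. The ubiquitin and proteasome list had 2 of 47 genes at an unadjusted p under 0.05, beside 4.23% of all genes. The serine protease list had 2 of 32, the lipid list 2 of 29, the nuclear receptor list 4 of 26, the sugar transport list 2 of 18 and the antioxidant list 2 of 15, and the likelihood ratio test called 0 genes of these. In the lists of light-sensing genes (5), other heat shock genes (4) and glyoxalases (2), 0 had an unadjusted p under 0.05.

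Fewer genes were called lower than higher at 28V (33 and 93), although 24.5% of all genes were lower in both blocks, beside 23.1% higher. Of the 12 that led the ranking of lower genes 11 were hypothetical or undescribed, but 15021 of all 17987 genes had no description. Of the 33 called lower, 14 had no description, a smaller share than among all genes. The differences of the 12 that led the ranking ended at -1.17 in the lesser block, while the next was comp47454 at -1.05. TCALIF_00152, described after a hypothetical protein of the water flea Daphnia pulex, had 18.0 and 7.43 in 28V, against 86.5 and 98.0 in 20V, a difference of -2.88 ± 0.33 (likelihood ratio adjusted p = 2.32e-14, limma adjusted p = 0.173). TCALIF_00043, TCALIF_07656, TCALIF_04052 and comp41390_c1_seq2_26401, with descriptions of the same kind, had differences of -1.52 ± 0.12, -1.50 ± 0.13, -1.74 ± 0.20 and -1.25 ± 0.14. The 53 genes so described, grouped after the values were seen, had a median difference of -0.13. In both blocks 20 of the 53 were lower and 9 higher, and 24 had opposite signs. In TCALIF_00043 the values were 36.5 and 31.8 in 28V, against 104.9 and 95.1 in 20V, with each pair close in the cycling regime. TCALIF_05278, without a description, had 20.6 and 9.34 in 28V, against 74.1 and 50.2 in 20V, a difference of -2.05 ± 0.17. TCALIF_04675 had 3.52 and 28.3 in 28V, against 98.0 and 94.4 in 20V, and its 28V libraries were less alike than its 20V libraries. TCALIF_12758, a copine-9-like gene of a family of calcium-dependent membrane-binding proteins, had 5.37 and 6.44 in 28V, against 22.5 and 16.4 in 20V, a difference of -1.55 ± 0.23. Of the undescribed genes, comp32668_c0_seq1_17889 had 44.8 and 46.5 in 28V, against 175 and 126 in 20V, a difference of -1.68 ± 0.16. The values of TCALIF_09934 were 12.8 and 3.18 in 28V, against 32.5 and 25.6 in 20V, and those of comp43809_c0_seq1_29416 were 5.003 and 10.3 in 28V, against 31.2 and 25.0 in 20V.

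Daily warming and a single exposure were compared in the 8 SD libraries scaled together. HSP70 TCALIF_04517 had 1727 and 1626 in 28V, against 289 and 363 in 20V, and 2857 and 2090.1 in 28ST, against 49.5 and 119 in 20NV. Both 28V libraries lay under both 28ST libraries, and both 20V libraries lay above both 20NV libraries. TCALIF_06728 showed the same order, with 148 and 128 in 28V, against 31.2 and 38.1 in 20V, and 387 and 168 in 28ST, against 10.01 and 7.66 in 20NV. Small heat shock gene TCALIF_11866 had 49.9 and 55.2 in 28V, against 30.8 and 44.7 in 20V, and 98.2 and 83.3 in 28ST, against 6.45 and 11.2 in 20NV. For TCALIF_13523 the levels were 267 and 391.98 in 28V, against 251 and 336 in 20V, and 207 and 138 in 28ST, against 34.4 and 43.3 in 20NV, so that both cycling groups stood above both constant groups. The lower gene comp47454_c0_seq1_35179 had 25.9 and 23.1 in 28V, against 54.7 and 49.3 in 20V, and 46.6 and 60.3 in 28ST, against 21.0 and 19.5 in 20NV.

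The difference between the 2 responses, cycling minus constant, was -2.60 ± 0.53 for TCALIF_04517, -2.74 ± 0.45 for TCALIF_06728, -2.78 ± 0.34 for TCALIF_11866, -2.19 ± 0.36 for TCALIF_06394 and -2.40 ± 0.26 for comp47454_c0_seq1_35179. No gene of 17449 passed limma (0%), where the lowest adjusted p was 0.734 and 250 genes (1.43%) had an unadjusted p under 0.05, and the quasi-likelihood test also called 0, with 257 at an unadjusted p under 0.05. The likelihood ratio test called 27 of the 17449 genes, 15 with a higher difference in the cycling regime and 12 with a lower one. These 12 held 2 HSP70 and 4 small heat shock genes. Among the 15 were cuticle genes such as TCALIF_00286, TCALIF_07088 and TCALIF_10390, the spt genes TCALIF_03908 and TCALIF_11653, and the spätzle gene TCALIF_09407. Over the 67 chaperone genes the median difference was 0.49 between 28V and 20V and 0.74 between 28ST and 20NV, and 58 of the 67 had the smaller value in the cycling regime. Over the described genes these medians were 0.055 and 0.228, and over all genes -0.006 and -0.02. The share of all genes with a smaller value in the cycling regime was not counted. Descriptions favour genes high after heat, so that the lists are not independent of this comparison. On the side of a larger response, TCALIF_06172 had 159 and 67.9 in 28V, against 17.5 and 1.35 in 20V, and 85.1 and 3.35 in 28ST, against 88.9 and 68.0 in 20NV, and its 28ST libraries lay far apart. Among the genes lower at 28V, TCALIF_00043 had 61.4 and 170.4 in 28ST, against 134 and 13.5 in 20NV, opposite in the 2 blocks, so that the constant regime gave no common direction.

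**Figure D4:**
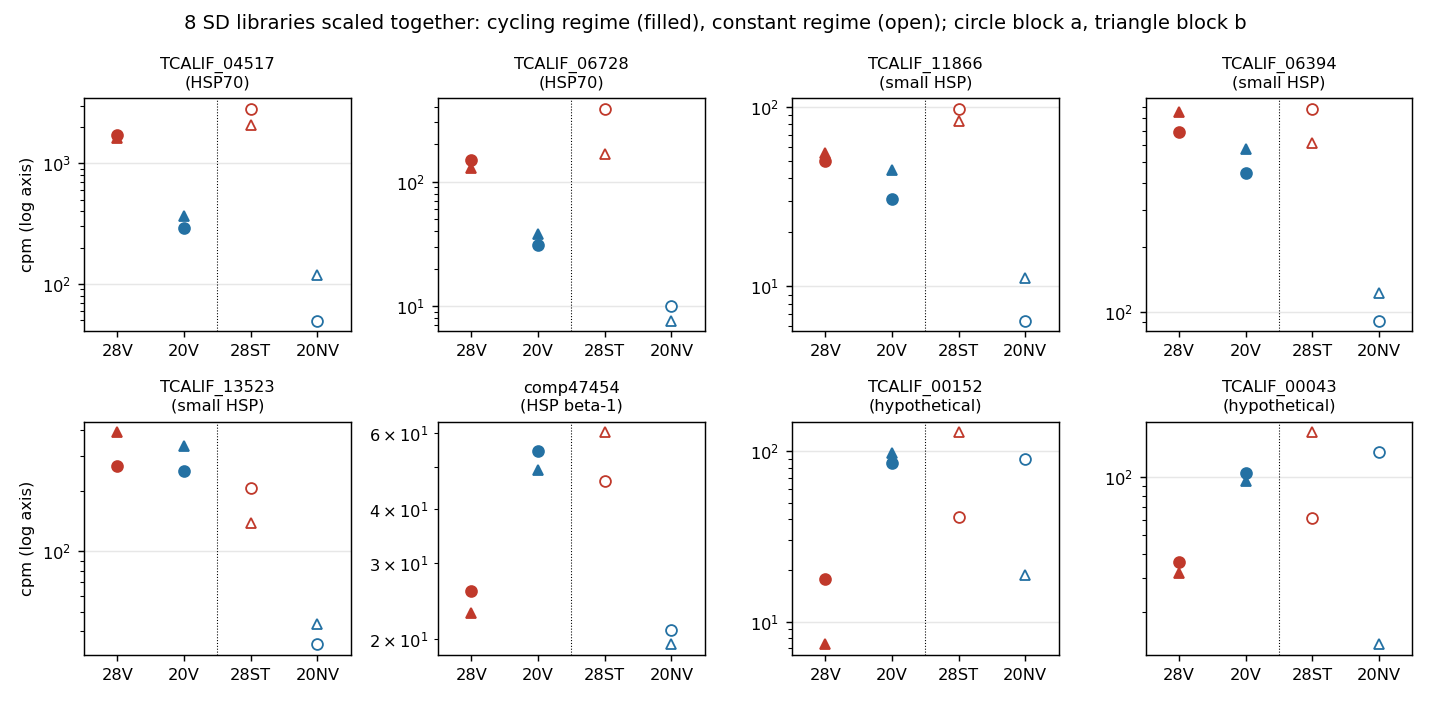
Levels of 8 genes in the 8 SD libraries scaled together, in cpm on a log axis that differs between panels; filled symbols are the cycling regime (28V, 20V), open symbols the constant regime (28ST, 20NV), and circles and triangles are blocks a and b. The HSP70 gene TCALIF_04517 has 1727 and 1626 in 28V and 289 and 363 in 20V, with 20NV lower still.

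The same contrast in the other populations gave a median over the chaperone lists of 0.49 in SD (67 genes), 0.47 in BR (61), 0.85 in SC (62) and 0.52 in BB (60). Their tables were scaled separately, and genes present in both tables were compared as differences between 28V and 20V. Against BR and SC, 0 of 16089 and 0 of 16285 genes differed in response by limma (0%), with 397 (2.47%) and 253 (1.55%) at an unadjusted p under 0.05. Against BB 3 of 15923 did (0.0188%, with 633 or 3.98% at an unadjusted p under 0.05, adjusted p = 0.0278 for each, with limma), and 0 did without the block. TCALIF_13962, a hypothetical protein, had 76.0 and 28.8 in 28V, against 18.7 and 7.09 in 20V in SD, and 31.0 and 13.5 in 28V, against 114 and 71.7 in 20V, in BB. The cuticle protein gene comp46706_c0_seq1_33625 had 19.8 and 12.3 in 28V, against 5.14 and 3.01 in 20V in SD, and 126 and 44.0 in 28V, against 406 and 194 in 20V, in BB. Another, comp43092_c0_seq1_28459, had 193 and 150.2 in 28V, against 68.9 and 59.4 in 20V in SD, and 129 and 45.3 in 28V, against 407 and 188 in 20V, in BB. All 3 were higher at 28V in both SD blocks and lower in both BB blocks. The median over the cuticle list was 0.31 in SD (79 genes), where the blocks differed, 0.28 in BR (72), 0.23 in SC (76) and -1.75 in BB (73). Over the spätzle genes, picked for their values in SD, it was 1.59 in SD (8 genes), -0.14 in BR (8), 0.19 in SC (5) and -1.55 in BB (8). HSP70 TCALIF_04517 had differences of 2.37 in SD and 2.27 in BB.

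**Figure D5:**
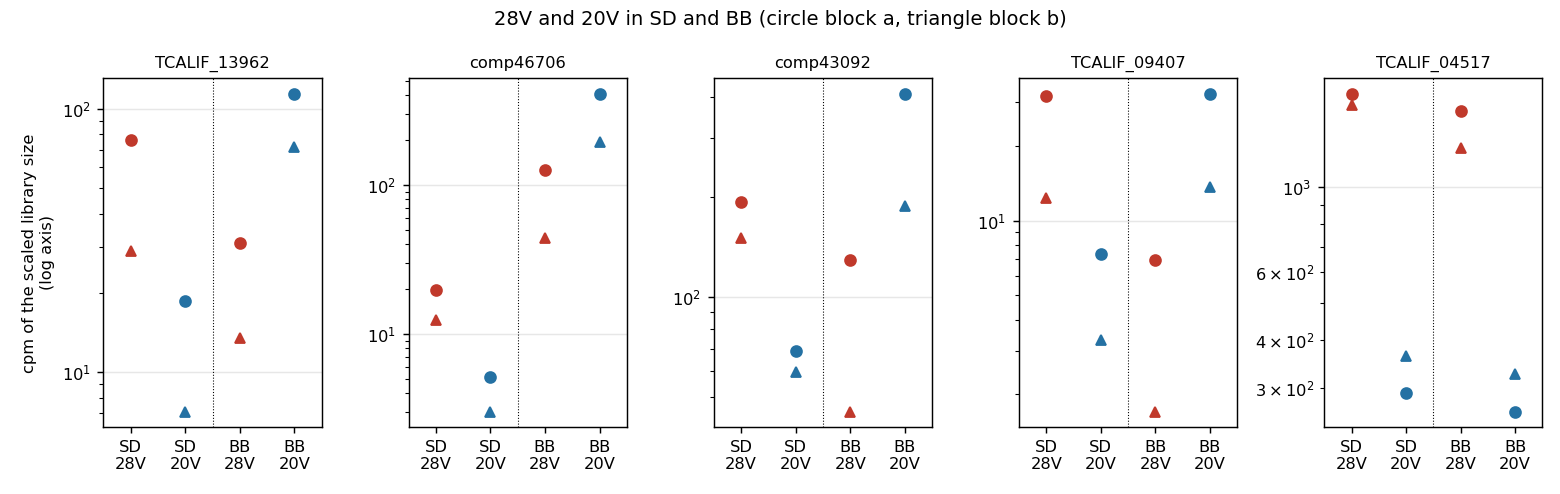
Values of 5 genes in 28V and 20V of SD and BB, in cpm of the scaled library size on a log axis that differs between panels; circles and triangles are blocks a and b. The first 3 genes and TCALIF_09407 are higher at 28V in SD and lower at 28V in BB, while the HSP70 gene TCALIF_04517 is higher at 28V in both populations.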

How the data were processed

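RNA of whole copepods was sequenced as unstranded 100-bp single-end reads. According to the methods, the authors mapped them with CLC Genomics Workbench to genomic and then to de novo transcripts of each population, counted unique reads, kept genes with at least 2 cpm in 2 of the 4 libraries of a comparison, and scaled with TMM in edgeR. The signal deposited by the authors is cpm, reads relative to that scaled library size. Their own fold changes and p-values were not used, and no column of the tables used was left without a group (0). For SD every value was a whole multiple of 1 read to within 4.78e-05 of a read, so reads were recovered.

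The main test was limma 3.58.1 (R 4.3.3) on log2(value + 1), fitted with the block of the column names and a trended variance. The block was taken as the sequencing lane, which the study's own model also held as a block, and p-values were adjusted over all genes (Benjamini-Hochberg). Limma was chosen as the main test because the deposited values are scaled, although count tests could be run on the recovered SD reads. The labels did not match blocks a and b to replicate numbers. By read totals, block a was the smaller in each SD group, as was the study's first SD replicate. A smaller share of the reads mapped in that replicate, so by size block a goes with it. Deviations of the 28V and 20V libraries of a block had a correlation of 0.163 over 11836 genes. Alternatives were edgeR 4.0.16 and DESeq2 1.42.0 on the recovered reads, other scalings, pseudocounts and filters, and each library left out. The limma fits and the stepwise and quasi-likelihood tests of edgeR were tested on simulated data, where signs and fold sizes were recovered but the calls held more unchanged genes than the adjusted p states. Genes were named if the study names them, if they were among the 12 highest or lowest by the lesser block difference (at least 1 read in each library, mean value of at least 10), if they belonged to a chaperone list, if they led another list or if their response differed between regimes or populations. The members and lists were chosen with earlier results of these data known, and descriptions came from the study's supplementary lists. Gene lengths were not used.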

Additional observations from a re-analysis of the deposited data

Results flagged for a closer look

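The response to daily warming differed between SD and BB in 3 genes by limma's test of the difference itself (adjusted p = 0.0278 for each), SD minus BB on the log2(value + 1) scale. The difference was 4.01 ± 0.21 for TCALIF_13962, 3.64 ± 0.19 for comp46706_c0_seq1_33625 and 3.24 ± 0.17 for comp43092_c0_seq1_28459 (SE). Each was higher at 28V in both SD blocks and lower at 28V in both BB blocks, and none passed without the block. On simulated libraries of this design limma's calls for such differences held more unchanged genes than the adjusted p states.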

How the results depend on the processing

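The count of genes called between 28V and 20V was 0 with limma and stayed at 0 without the replicate block (510 at an unadjusted p under 0.05), without the variance trend, with pseudocounts of 0.5 and 5, with the filter on a mean value of at least 10, with 3 other scalings, in the fit of 8 libraries, at an adjusted p under 0.10 and with the quasi-likelihood test. It was 126 and 119 with the likelihood ratio test (stepwise and joint dispersions, 112 shared), 50 with DESeq2 (47 shared with the stepwise calls), and 0 to 109 with a library left out. The cause was not tested. The regime difference had 0 calls with limma, 0 without the block, 27 with the likelihood ratio test and 0 to 0 with a library left out. Against BB the calls fell to 0 without the replicate block, against 3 with it. Likelihood ratio tests of the differences between populations were not run, since recovery of whole reads was done for SD only and not tried for BR, SC or BB. Of 1667 values for the genes named (Contig1467_3339 not included), 1463 kept their side of the threshold and their sign, 196 passed only under the alternative and 8 changed sign. All 8 came from leaving out a library, over which the difference ran between -1.49 and 0.43 for Contig59_58, -0.094 and 0.29 for TCALIF_02260, -0.55 and 0.14 for TCALIF_11791, -1.49 and 0.20 for TCALIF_13264, -2.34 and 0.28 for TCALIF_13701 (a vitellogenin), and -0.11 and 0.44 for TCALIF_13523. Among 64 named genes called by the likelihood ratio test, the difference of 18 moved by over 1.5 times without a library. Without 28V block a it was 0.38 for comp37950_c0_seq1_22442, 0.51 for TCALIF_13048, 0.78 for comp38417_c0_seq1_22939, 1.05 for comp44992_c0_seq1_30955, 1.16 for TCALIF_09407, 0.89 for TCALIF_09663, 1.24 for TCALIF_13962 and -1.73 for TCALIF_04675. Without 28V block b it was 2.39 for comp37950_c0_seq1_22442, 2.29 for TCALIF_13048, 1.00 for comp46685_c0_seq1_33583, 0.93 for TCALIF_12524, -1.12 for TCALIF_09934 and -0.51 for comp33970_c0_seq1_19090. Without 20V block b it was 2.51 for TCALIF_06172, 2.14 for TCALIF_00286, 1.36 for TCALIF_12219, 1.25 for comp63947_c0_seq1_44811, 0.92 for TCALIF_13048, 0.87 for TCALIF_03908 and 0.86 for TCALIF_09664. The scalings moved the median of all genes by under 0.1.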
